A study of Pan troglodytes with 8 samples.

Results

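Neurons (N) were compared with basal radial glia (bRG) sorted from chimpanzee cerebral organoids, as the 2 N libraries against the 2 bRG libraries of a series of 8. The organoids were grown from SandraA, an induced pluripotent stem cell line of 1 chimpanzee (Pan troglodytes), and were collected at week 8 of culture, within 3 days of it. No treatment or genetic change separated the groups. Cells were separated by fluorescence-activated sorting, by antibodies and gates that the sources used here do not give. The labels call the N cells BCL11B+ neurons, so the level of BCL11B, a transcription factor of deep-layer cortical neurons, belongs to the definition of N. The other 4 libraries, of apical radial glia (aRG) and basal intermediate progenitors (bIP), entered the fit to estimate the spread. Of 60583 genes named in the chimpanzee count table, 35382 had enough reads to be tested. A single line means that differences between animals were not sampled. Whether both libraries of a population were made from different cultures is not in the labels, so the p-values cover only library-to-library spread, and that could be technical.

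Basal radial glia are neural stem cells of the developing cortex that have detached from the ventricle but keep a long basal process, SOX2 expression and the ability to divide. They are abundant in primates and are held to contribute to the size of the neocortex. Neurons are their post-mitotic descendants, reached directly or through intermediate progenitors, and they lose stem cell transcription factors, leave the cell cycle, and build axons, dendrites and synapses. The series title concerns gene signatures of cell shape in basal radial glia, and the comparison with neurons bears on which transcripts separate the stem cell from its product.

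Total counts were 30320577 and 25324812 in the N libraries and 28800481 and 28865049 in the bRG libraries. At least 1 read was found for 37583 and 37254 genes in N and for 43066 and 43240 in bRG. The libraries of a population were not copies of each other (chi-square per gene 62.2 for N and 56.8 for bRG, where counting noise gives 1). Levels below are CPM, read counts divided by library size, with library sizes scaled by the TMM method (trimmed mean of M values). They are not divided by transcript length, so they are compared between libraries and not between genes. Values are given in the order library 1, library 2. A log2 fold change is N minus bRG, so a negative value is lower in N, and its standard error is abbreviated SE. In bulk RNA, fewer cells of a kind and less RNA per cell cannot be told apart.

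SOX2, DCX and BCL11B differed in the direction of the sorted labels. The gates are not given, so these levels may be part of the sort and are not an independent check. SOX2, the stem cell transcription factor, was at 25.0 and 11.7 CPM in N and 696 and 477 in bRG (mean ± SD 18.4 ± 9.36 and 587 ± 155, n = 2 each). DCX, a microtubule-binding protein of young neurons, was at 1988 and 1644 CPM in N and 334 and 561 in bRG. BCL11B, which belongs to the definition of N, was at 488 and 589.6 CPM in N and 59.0 and 113 in bRG. In each of the 3 genes the groups did not overlap. The same held for all 2128 genes that passed the test below, and for 17382 of the 35382 genes tested. Non-overlap thus adds nothing to a pass and was common without one. Neuronal transcripts were present in bRG as well, and more so in its library 2. The summed level of the 19 general neuronal genes measured was 10413 and 11131 CPM in N and 2544 and 4380.0 in bRG, with bRG library 2 above library 1 in 18 of the 19. TUBB3, the neuronal beta-tubulin used as a marker in staining, did not pass the test. It was at 21.2 and 15.0 CPM in N and 4.70 and 9.55 in bRG, which do not overlap (log2 fold change 1.34, SE 0.51, adjusted p = 0.172).

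**Figure D1:**
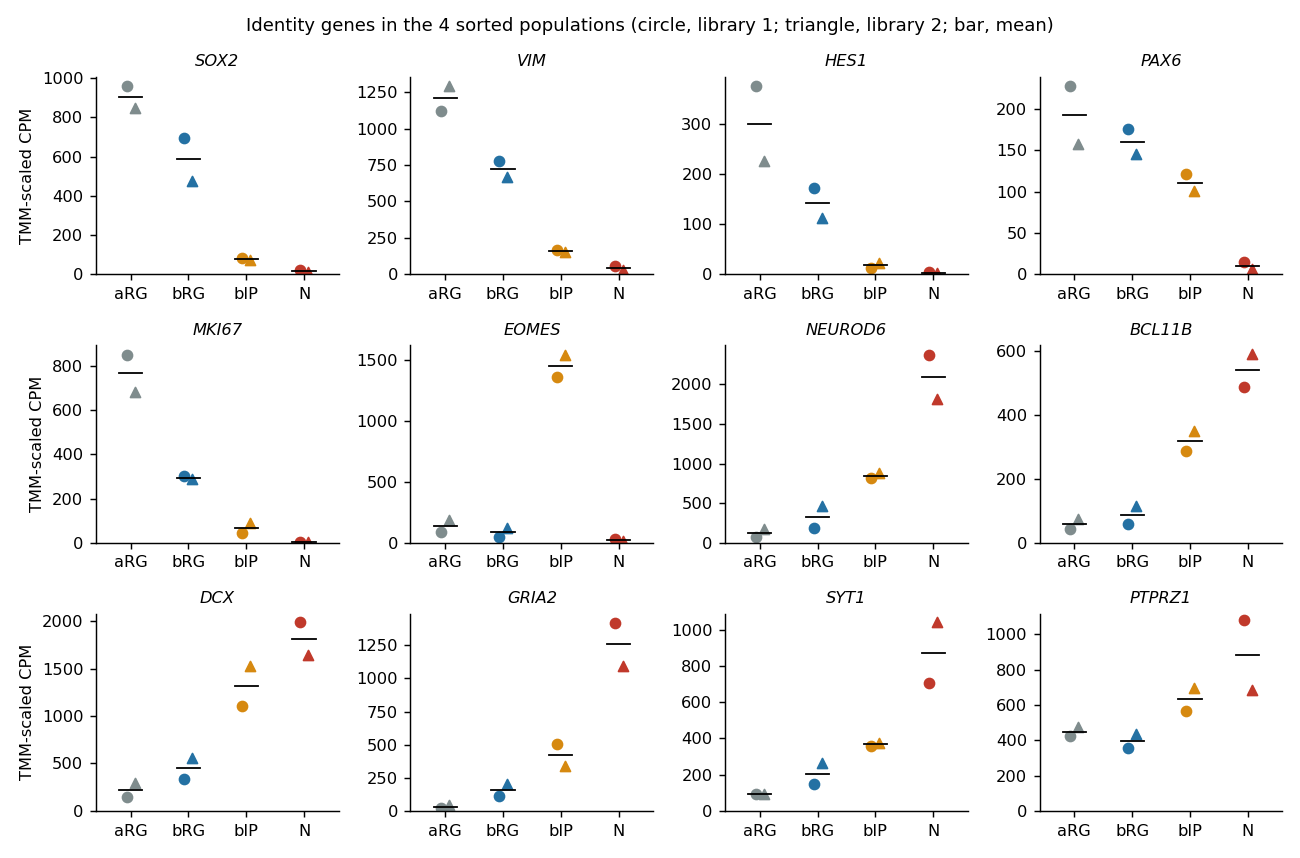
TMM-scaled CPM of 12 identity genes in the 4 sorted populations, with 1 point per library and a bar at the mean, each panel on its own linear axis from 0. SOX2, VIM, HES1, PAX6 and MKI67 were lowest in N, EOMES stood highest in bIP, and NEUROD6, BCL11B, DCX, GRIA2 and SYT1 were highest in N in every library.

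Of the 35382 genes tested, 2128 (6.01%) passed an adjusted p of 0.05 with the quasi-likelihood test of edgeR. Higher in N were 928 (2.62%) and lower in N were 1200 (3.39%). The sides differed in size: the median log2 fold change was 1.78 among the higher genes and -2.93 among the lower ones, against -0.11 over all genes tested. A fall below -4 was found for 334 genes, and a rise above 4 for 8. In 293 of the genes that fell, the mean in N was under 1 CPM, whereas 14 of those that rose had a bRG mean under 1 CPM. Most rises were thus in genes that already had reads in bRG. Among the 16112 protein-coding symbols tested, 4.94% were higher and 5.75% lower, and the counts of gene lists below can be read against these shares.

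The number of rises depended on single libraries. Without bRG library 1, the one with fewer neuronal reads, 1190 genes passed (3.00%), of which 274 were higher (0.691%) and 916 lower (2.31%). Without N library 2, 1389 passed, of which 552 were higher. With the replicate number as a block, 3594 genes passed, 1890 of them higher and 1704 lower, so that rises outnumbered falls there and falls outnumbered rises without the block. The labels do not say whether libraries with the same number belong together. DESeq2 called 3803 genes (10.7%), 1736 higher (4.91%) and 2067 lower (5.84%). Of the 2128 genes, 1140 were also called without bRG library 1, 1233 without N library 2, 2126 with the block and 2123 by DESeq2, and 0 of these had the opposite direction in that fit. With only the N and bRG libraries in the fit, 1392 genes passed, 592 higher and 800 lower. Among the named genes described below (rule given with the processing), that fit lost the calls of MAP1B, NFIA, SPTAN1, PTPRZ1, PALMD, JAG2, NEUROG2, EOMES, NEUROD4, ELAVL4, RORB, UNC5C, MSI2, BCL7A, HERPUD1, IER2, LMX1A and OTX2, at adjusted p = 0.0557 to 0.104. Members of gene lists that are given only by their log2 fold change are left out here, and some of them lost their call too. The rises of the intermediate progenitor list went from 3 to 0, so that of SSTR2 was lost as well. SLC1A3 missed the threshold with robust estimation (adjusted p = 0.0506).

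**Figure D2:**
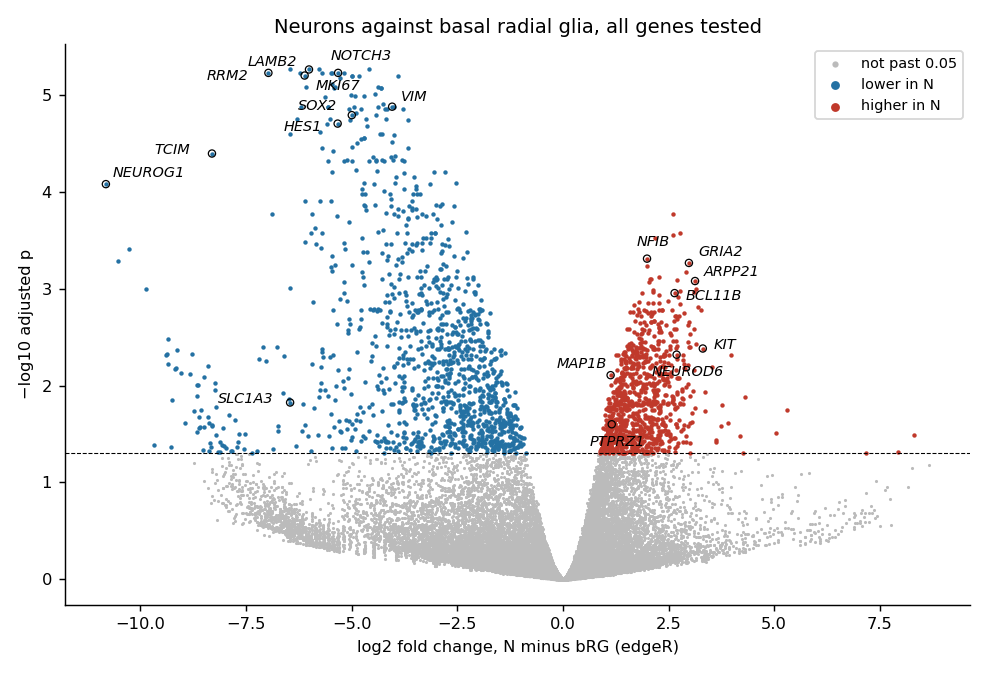
Log2 fold change (N minus bRG) of each of the 35382 genes tested against -log10 of its edgeR adjusted p, with a dashed line at 0.05. Falls, in blue, reach further from 0 and to smaller p than rises, in red.

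The 12 largest falls in N were taken from called genes with at least 10 CPM in bRG and a regular gene symbol. Among them were TCIM, RRM2, TNC, NFATC4, KIF18B, SLC1A3, BST2, TROAP, AURKB, MKI67 and PBK. The 12 fell by 6.11 to 8.31 on the log2 scale. Between bRG and aRG, 0 of the 12 passed in the same fit. TCIM, a small regulator of Wnt signalling and transcription, had 4 and 0 reads in the N libraries and 1010 and 674 in bRG (log2 fold change -8.31, SE 0.73, adjusted p = 4.02e-05). A group of these genes serves cell division. RRM2, the regulatory subunit of ribonucleotide reductase that supplies deoxynucleotides, was at 1.28 and 1.99 CPM in N and 178 and 231 in bRG (log2 fold change -6.97, SE 0.43, adjusted p = 5.91e-06). MKI67, the Ki-67 proliferation antigen, was at 4.56 and 3.93 CPM in N against 302 and 287 in bRG (log2 fold change -6.11, SE 0.40, adjusted p = 6.29e-06). In both genes the 2 N libraries were close to each other and far below bRG. KIF18B (a mitotic kinesin), TROAP (a spindle-associated protein), AURKB (the Aurora B kinase) and PBK (a mitotic kinase) fell by 6.46, 6.29, 6.20 and 6.11.

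The other large falls concern the glial membrane, matrix and signalling. TNC, the matrix protein tenascin-C, was at 1.12 and 0.691 CPM in N and 52.0 and 163 in bRG (log2 fold change -6.88, SE 0.73, adjusted p = 0.000171). NFATC4, a calcium-regulated transcription factor, was at 2.01 and 3.88 CPM in N and 278 and 244 in bRG (log2 fold change -6.47, SE 0.37, adjusted p = 5.45e-06). Each was below 6 CPM in both N libraries. SLC1A3, the glial glutamate transporter GLAST, differed between the bRG libraries themselves, at 30.2 and 226 CPM, against 0.773 and 2.16 in N (log2 fold change -6.46, SE 1.37, adjusted p = 0.015). Its call was lost without N library 1 (adjusted p = 0.0592). BST2, a membrane protein of the interferon response, was at 0.851 and 0.0863 CPM in N and 35.3 and 49.4 in bRG (log2 fold change -6.45, SE 0.87, adjusted p = 0.000978).

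**Figure D3:**
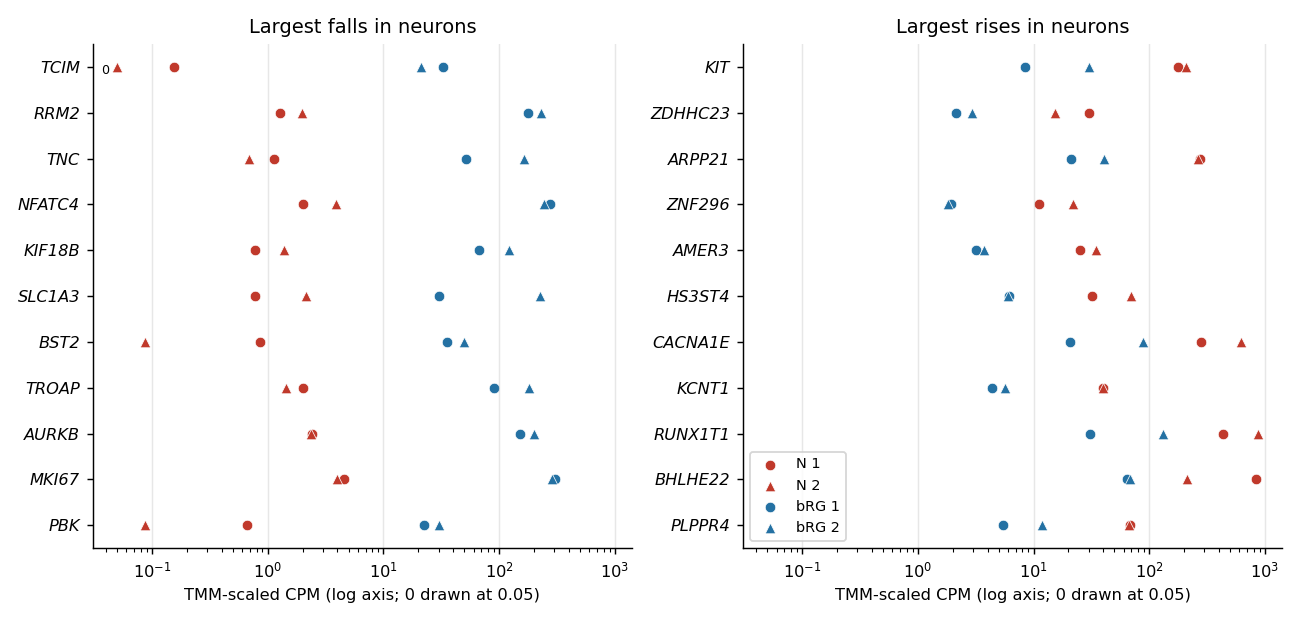
TMM-scaled CPM on a log axis for 11 of the 12 largest falls and 11 of the 12 largest rises in N, with 1 symbol per library and a value of 0 drawn at 0.05. Libraries that do not overlap were a condition for choosing these genes, and the gap between red and blue symbols is wider for the falls than for the rises.

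The 12 largest rises were taken from called genes with at least 10 CPM in N and a regular gene symbol (no clone, LINC or antisense names). Among them were KIT, ZDHHC23, ARPP21, ZNF296, AMER3, HS3ST4, CACNA1E, KCNT1, RUNX1T1, BHLHE22 and PLPPR4. The 12 had log2 fold changes of 2.98 to 3.31, and the 8 rises above 4 did not meet these conditions. KIT, a receptor tyrosine kinase for stem cell factor, was at 177 and 209 CPM in N and 8.46 and 30.4 in bRG (log2 fold change 3.31, SE 0.56, adjusted p = 0.00414). ARPP21, a cyclic AMP-regulated phosphoprotein of forebrain neurons, was at 273 and 264 CPM in N and 21.2 and 40.3 in bRG (log2 fold change 3.13, SE 0.41, adjusted p = 0.000833). In both genes bRG library 2 was above bRG library 1 and still well below N.

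Transcription factors and cofactors among the rises were BHLHE22, RUNX1T1 and ZNF296. BHLHE22, a helix-loop-helix factor of cortical projection neurons, was at 836 and 212 CPM in N and 64.2 and 67.9 in bRG (log2 fold change 2.99, SE 0.50, adjusted p = 0.00402), so the N libraries differed from each other as well. RUNX1T1, a transcriptional corepressor, was at 435 and 865 and 31.0 and 132 (log2 fold change 3.00, SE 0.62, adjusted p = 0.0127). ZNF296, a zinc finger protein, was at 11.1 and 21.9 and 1.95 and 1.83 (log2 fold change 3.13, SE 0.68, adjusted p = 0.0171). Its call was lost without N library 2 (adjusted p = 0.121), without bRG library 1 (0.0907) and without bRG library 2 (0.0735).

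Channels and membrane proteins were among the rest. CACNA1E, the pore subunit of R-type calcium channels, was at 279 and 620.2 CPM in N and 20.7 and 87.4 in bRG (log2 fold change 3.06, SE 0.71, adjusted p = 0.0237). KCNT1, a sodium-activated potassium channel, was at 40.1 and 39.7 and 4.38 and 5.61 (log2 fold change 3.00, SE 0.48, adjusted p = 0.0029), with N libraries that were nearly equal. PLPPR4, a phospholipid phosphatase-related protein of the postsynapse, rose by 2.98 (adjusted p = 0.00218). HS3ST4, a heparan sulfate sulfotransferase, rose by 3.07 (adjusted p = 0.0193), ZDHHC23, a palmitoyltransferase, by 3.15 (0.00369), and AMER3, a relative of the APC membrane recruitment protein, by 3.10 (0.00263). Without N library 2 the calls of CACNA1E (adjusted p = 0.0813) and HS3ST4 (0.096) were lost.

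By difference in CPM rather than ratio, the leading genes were others. A difference in CPM can be large only for transcripts with many reads, and the part of transcript length in this ranking was not tested. The 8 largest gains were MAP1B, SOX4, NFIA, NFIB, NEUROD6, DCX, BCL11A and SPTAN1. MAP1B, a microtubule-associated protein of growing axons, was at 9123 and 8438 CPM in N and 3909.6 and 4119 in bRG (log2 fold change 1.13, SE 0.21, adjusted p = 0.00781). SOX4, a factor of neuronal differentiation, was at 5732 and 3886 and 1518 and 1723 (log2 fold change 1.57, SE 0.25, adjusted p = 0.00263). NFIB, a nuclear factor I protein, was at 3270.3 and 2849 and 645 and 894 (log2 fold change 1.99, SE 0.24, adjusted p = 0.000489), while its relative NFIA rose by 1.14 (adjusted p = 0.00976). BCL11A, the paralog of BCL11B, was at 1611 and 2081 and 382 and 627 (log2 fold change 1.87, SE 0.30, adjusted p = 0.00289). SPTAN1, the alpha spectrin of the membrane skeleton, rose by 1.46 (adjusted p = 0.0233). Without bRG library 1 the calls of MAP1B (adjusted p = 0.0814), NFIA (0.082) and SPTAN1 (0.184) were lost. That of NFIA was lost without N library 1 (0.0608) and that of SPTAN1 without N library 2 (0.0946).

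The 8 largest losses were SYNE2, TTYH1, VIM, EFNB1, ZFP36L1, SOX2, PTN and CLU. SYNE2, a nesprin of the nuclear envelope, was at 337 and 260.0 CPM in N and 1293 and 1098 in bRG (log2 fold change -2.00, SE 0.30, adjusted p = 0.00205). TTYH1, a membrane protein of neural stem cells, was at 146 and 135 and 947 and 721 (log2 fold change -2.57, SE 0.27, adjusted p = 0.000139). ZFP36L1, a protein that destabilises AU-rich messenger RNA, was at 15.8 and 10.3 and 793 and 398 (log2 fold change -5.51, SE 0.44, adjusted p = 1.76e-05). The fall in ZFP36L1 was steeper than those of SYNE2 and TTYH1, which kept a level above 100 CPM in both N libraries. PTN, the growth factor pleiotrophin, was at 39.3 and 28.1 and 378 and 751 (log2 fold change -4.07, SE 0.42, adjusted p = 0.00014). EFNB1, an ephrin ligand, fell by 2.31 (adjusted p = 0.00215), and CLU, the chaperone clusterin, by 2.87 (0.000408).

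Stem cell identity genes fell as a group. Of the 17 radial glia genes measured, 15 fell and 1 rose, with a median log2 fold change of -3.91. SOX2 fell by 5.00 (SE 0.39, adjusted p = 1.61e-05). VIM, the intermediate filament vimentin, was at 54.9 and 32.8 CPM in N and 775 and 669 in bRG (log2 fold change -4.04, SE 0.30, adjusted p = 1.32e-05). PAX6, the cortical patterning factor, was at 15.3 and 6.00 and 176 and 145 (log2 fold change -3.91, SE 0.42, adjusted p = 0.000178). ID4, an inhibitor of helix-loop-helix factors, and GLI3, a factor of the hedgehog pathway, fell by 4.37 and 4.18. SOX3 (-4.75), SOX9 (-3.06), NES (-2.46) and NOTCH1 (-2.36) also fell. PEA15, a phosphoprotein enriched in astrocytes, did not pass (log2 fold change -0.44, adjusted p = 0.462).

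The exception was PTPRZ1, a receptor phosphatase often used to mark outer radial glia. It was at 1082 and 688 CPM in N and 358 and 436 in bRG, with both N libraries above both bRG libraries (log2 fold change 1.16, SE 0.27, adjusted p = 0.0251). The rise did not pass without bRG library 1 (adjusted p = 0.199) or without N library 1 (0.177).

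Basal radial glia genes split. Of 18 measured, 9 fell, 1 rose and 8 did not pass, with a median of -1.89. HOPX, a homeodomain protein used as the outer radial glia marker, was at 2.63 and 0.777 CPM in N and 33.5 and 28.2 in bRG (log2 fold change -4.17, SE 0.51, adjusted p = 0.000508). LRIG3, a leucine-rich repeat membrane protein, was at 1.04 and 0.647 and 53.2 and 27.6 (log2 fold change -5.56, SE 0.50, adjusted p = 4.81e-05). BMP7, a bone morphogenetic protein, and LGALS3BP, a secreted galectin-binding protein, fell by 4.43 and 4.73. Besides TNC, the others that fell were PDGFD (-3.17), TKTL1 (-2.88), FAM107A (-2.85) and LIFR (-1.68). PALMD, palmdelphin, a protein of membrane and actin dynamics, went the other way at 16.7 and 19.8 CPM in N and 2.08 and 5.64 in bRG (log2 fold change 2.24, SE 0.57, adjusted p = 0.0366). The rise of PALMD was lost without any of 3 libraries, N 1 (adjusted p = 0.0589), N 2 (0.12) or bRG 1 (0.308). STAT3 (-0.54) and IL6ST (-0.80), members of the LIF pathway, did not pass. The genes of this list were not particular to bRG. In aRG, HOPX was at 41.9 and 49.7 CPM, LRIG3 at 54.9 and 34.8 and TNC at 40.5 and 136. None of HOPX, LRIG3, TNC, BMP7, LGALS3BP and PALMD passed between bRG and aRG in the same fit.

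Of 10 apical radial glia genes, 4 were lower in N than in bRG and none rose. PROM1, the apical membrane protein prominin, was at 3.56 and 2.63 CPM in N and 61.7 and 41.7 in bRG (log2 fold change -4.06, SE 0.36, adjusted p = 4.37e-05). CRB2, a Crumbs polarity protein, was at 16.1 and 11.5 and 71.5 and 63.1 (log2 fold change -2.29, SE 0.34, adjusted p = 0.00201). In aRG, PROM1 was at 64.1 and 62.7 CPM and CRB2 at 68.1 and 90.4, and neither passed between bRG and aRG in the same fit. CDH2, N-cadherin of the adherens junction, had a log2 fold change of -0.00 (adjusted p = 1). With only the N and bRG libraries in the fit, 2 of the 4 passed.

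Cell-cycle transcripts were the most uniform group. Of 26 mitosis genes, 25 fell and none rose (median -3.80). TOP2A, the topoisomerase of replicating chromosomes, was at 16.5 and 13.3 CPM in N and 448 and 402 in bRG (log2 fold change -4.83, SE 0.31, adjusted p = 6.29e-06). CCNB2, a mitotic cyclin, was at 1.24 and 1.08 and 57.8 and 44.8 (log2 fold change -5.46, SE 0.37, adjusted p = 7.76e-06), and its relative CCNB1 fell by 4.30. NUSAP1, a spindle protein, did not pass (log2 fold change -3.33, adjusted p = 0.204). All 26 members had a negative log2 fold change.

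DNA replication genes fell less far. Of 25 measured, 18 fell and none rose (median -1.90), and 11 fell with only the N and bRG libraries in the fit. MCM5, a subunit of the replicative helicase, was at 5.45 and 4.79 CPM in N and 73.0 and 145 in bRG (log2 fold change -4.41, SE 0.41, adjusted p = 6.12e-05). CLSPN, the checkpoint mediator claspin, was at 10.9 and 8.33 and 105 and 155 (log2 fold change -3.76, SE 0.34, adjusted p = 4.81e-05). Helicase subunits differed in size: MCM3 fell by 3.22, MCM2 by 2.54 and MCM6 by 1.02, and neither MCM4 (-1.19) nor MCM7 (-0.80) passed. The bRG library 2 was above bRG library 1 in 22 of the 25 genes.

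Notch signalling, in which a ligand on a neighbour keeps a stem cell undifferentiated through HES and HEY repressors, differed between its parts. Of 20 genes measured, 8 fell and 1 rose (median -1.13). Among receptors, NOTCH3 was at 7.39 and 5.31 CPM in N and 246 and 262 in bRG (log2 fold change -5.32, SE 0.32, adjusted p = 5.91e-06). NOTCH2 was at 10.6 and 14.5 and 65.4 and 64.6 (log2 fold change -2.38, SE 0.29, adjusted p = 0.000484), a smaller fall than that of NOTCH3. Among effectors, HES1 was at 4.14 and 2.89 and 172 and 112 (log2 fold change -5.33, SE 0.43, adjusted p = 1.97e-05), and HEY2 (-5.06) and HEYL (-4.20) fell with it. The Fringe enzymes LFNG and MFNG, which modify the receptors, fell by 3.80 and 3.22, whereas RFNG did not pass (0.27).

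Among Notch ligands, DLL1 (0.25), DLL3 (1.24) and JAG1 (-1.27) did not pass. JAG2 was at 170.2 and 229 CPM in N and 48.3 and 90.6 in bRG (log2 fold change 1.52, SE 0.33, adjusted p = 0.0158). It lost its call without N library 2 (adjusted p = 0.0837) or bRG library 1 (0.158). RBPJ, the DNA-binding partner of Notch, had a log2 fold change of -0.17 (adjusted p = 0.799).

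Growth factor pathway genes fell in N in 21 of 40 measured and none rose (median -1.80). Among receptors of fibroblast growth factors, FGFR1 was at 32.1 and 13.6 CPM in N and 376 and 621 in bRG (log2 fold change -4.44, SE 0.46, adjusted p = 0.000136), and FGFR2 (-2.96) and FGFR3 (-3.02) fell too. The transcriptional targets of that pathway ETV5 (-5.49), ETV4 (-3.62), DUSP6 (-3.58) and SPRY4 (-3.17) fell, and SPRY2 (-1.14) did not pass. Among Wnt genes, FZD8, a Frizzled receptor, was at 1.93 and 1.55 and 66.5 and 80.0 (log2 fold change -5.39, SE 0.37, adjusted p = 8.31e-06). TCF7L1, a repressor at Wnt targets, was at 2.47 and 4.88 and 86.1 and 101 (log2 fold change -4.67, SE 0.37, adjusted p = 1.77e-05), and AXIN2 (-0.20) and LEF1 (-1.31) did not pass. Receptors of insulin-like signals did not pass: IGF1R was at 305 and 263 CPM in N and 219 and 216 in bRG (log2 fold change 0.38, adjusted p = 0.435), and INSR had a log2 fold change of 0.84 (adjusted p = 0.0861).

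In the Hippo pathway, which restrains the coactivators YAP1 and WWTR1, 6 of 15 genes fell and 1 rose. YAP1 was at 2.94 and 1.60 CPM in N and 68.4 and 41.3 in bRG (log2 fold change -4.59, SE 0.42, adjusted p = 4.81e-05). CCN2, a matrix protein and YAP target, had no read in either N library and 162 and 188 reads in bRG, at least 45.5-fold lower in N when 3 reads in each N library are taken as the floor. AJUBA, a LIM-domain regulator of the pathway, was at 1.51 and 0.604 and 17.9 and 19.2 (log2 fold change -4.12, SE 0.53, adjusted p = 0.000708). The giant cadherins moved apart. FAT1 was at 2.98 and 5.05 CPM in N and 52.3 and 77.3 in bRG (log2 fold change -4.01, SE 0.36, adjusted p = 4.65e-05), whereas FAT4 was at 529.9 and 530.3 in N and 127 and 196 in bRG (log2 fold change 1.71, SE 0.29, adjusted p = 0.00447). Groups did not overlap in either, as in every gene that passed.

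Matrix and integrin genes fell in 15 of 31 and none rose (median -1.87). LAMB2, a laminin chain of basement membranes, was at 3.56 and 2.42 CPM in N and 202 and 184 in bRG (log2 fold change -6.01, SE 0.35, adjusted p = 5.45e-06). ITGA2, a collagen-binding integrin chain, was at 1.39 and 2.03 and 93.0 and 94.8 (log2 fold change -5.78, SE 0.33, adjusted p = 5.45e-06). COL4A5, a type IV collagen chain, was at 24.4 and 25.5 and 379 and 367 (log2 fold change -3.90, SE 0.26, adjusted p = 6.29e-06). These 3 had close library values in both groups. COL4A6 fell by 3.79, while the other pair of type IV chains, COL4A1 (-0.16) and COL4A2 (-0.49), did not pass. Neither did the common integrin chain ITGB1 (-0.43) or the laminin chains LAMB1 (1.15) and LAMC1 (-0.32). BCAN and VCAN, the proteoglycans brevican and versican, fell by 4.26 and 1.87.

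Genes of actin, the membrane and cell shape, the subject of the series title, moved in both directions. Of 33 measured, 8 fell and 3 rose (median -0.52), and with only the N and bRG libraries in the fit 5 fell and 1 rose. RHOC, a small GTPase of cell motility, was at 2.40 and 2.16 CPM in N and 27.2 and 29.5 in bRG (log2 fold change -3.63, SE 0.38, adjusted p = 0.00014). ARHGAP11A, a GTPase-activating protein, was at 2.05 and 1.04 and 26.0 and 33.8 (log2 fold change -4.27, SE 0.48, adjusted p = 0.000247). RND3, an atypical small GTPase that antagonises RHOA, was at 13.0 and 10.1 and 68.6 and 41.0 (log2 fold change -2.25, SE 0.35, adjusted p = 0.00238). RHOC and ARHGAP11A were at under 3 CPM in both N libraries. The linkers between membrane and actin EZR (-1.50) and MSN (-2.28) fell, and their relative RDX did not pass (-0.24). AKNA, a microtubule organiser of delaminating progenitors, fell by 2.18, and COBLL1, a Cordon-bleu-like actin protein, by 3.45. ADD3, an adducin of the spectrin-actin skeleton, was at 258 and 234 CPM in N and 103 and 88.1 in bRG (log2 fold change 1.37, SE 0.25, adjusted p = 0.00594), and missed the threshold without bRG library 2 (adjusted p = 0.0523). GAP43, a growth cone protein, rose by 1.70. The actin motors MYH9 (-0.05) and MYH10 (0.30) and the filamin FLNA (-0.29) did not pass.

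Of 24 centrosome and cilium genes measured as 1 list, 7 fell, 2 rose and 15 did not pass. The genes that fell serve centriole duplication or the spindle pole. ASPM, the spindle pole protein of primary microcephaly, was at 9.32 and 5.05 CPM in N and 207 and 167 in bRG (log2 fold change -4.70, SE 0.40, adjusted p = 2.77e-05). WDR62, CEP152, PLK4, CENPJ, SASS6 and STIL fell by 2.71, 2.61, 2.52, 2.08, 1.79 and 1.39. Ciliary transport genes IFT80 (0.00), IFT88 (0.45), IFT122 (0.59) and IFT140 (0.68) did not pass. KIF3A, a kinesin of ciliary and axonal transport, was at 455 and 417 CPM in N and 197 and 179.7 in bRG (log2 fold change 1.21, SE 0.25, adjusted p = 0.0117), and CAMSAP3, a protein of microtubule minus ends, rose by 1.60. Neither rise passed without bRG library 1 (adjusted p = 0.063 and 0.157), and that of KIF3A did not pass without bRG library 2 (0.0776). The blocked fit called 4 rises.

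Metabolic genes of glia fell in 12 of 24 and none rose. PHGDH, the first enzyme of serine synthesis, was at 40.0 and 39.7 CPM in N and 338 and 373 in bRG (log2 fold change -3.16, SE 0.31, adjusted p = 8.23e-05). FABP7, the brain fatty acid-binding protein, was at 17.7 and 19.0 and 132 and 246 (log2 fold change -3.36, SE 0.49, adjusted p = 0.00167). ACSS1, a mitochondrial acetyl-CoA synthetase, and GPX8, a peroxidase of the endoplasmic reticulum, fell by 4.71 and 5.00. APOE, the lipid carrier apolipoprotein E, fell by 3.46 and CA2, a carbonic anhydrase, by 3.76. The serine pathway was not uniform, since PSAT1 fell by 2.06 and PSPH did not pass (-0.08).

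Glycolysis and stress genes fell in 4 of 19, namely TRIB3, DDIT3, XBP1 and HERPUD1. All 4 belong to the unfolded protein and integrated stress responses, and no glycolytic enzyme on the list passed. TRIB3, a pseudokinase induced by stress, was at 6.69 and 6.13 CPM in N and 39.7 and 31.9 in bRG (log2 fold change -2.48, SE 0.40, adjusted p = 0.00292). DDIT3, the factor CHOP, was at 20.6 and 15.0 and 102 and 45.6 (log2 fold change -2.04, SE 0.38, adjusted p = 0.00729). Without bRG library 1, TRIB3 alone passed, with DDIT3 at adjusted p = 0.0551, XBP1 at 0.0922 and HERPUD1 at 0.282. HERPUD1 did not pass without N library 1 (0.0665) or N library 2 (0.123). The blocked fit called 7 falls.

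Immediate early genes, which respond to stimulation and to cell handling, fell in 4 of 16. EGR1 was at 5.61 and 6.99 CPM in N and 139 and 37.5 in bRG (log2 fold change -3.81, SE 0.73, adjusted p = 0.00833), and FOS was at 5.07 and 0.906 and 48.3 and 36.2 (log2 fold change -3.81, SE 0.76, adjusted p = 0.0103). The bRG library 1 was the higher of the pair in both. ATF3 fell by 3.22 and IER2 by 1.46, the latter not past the threshold without N library 2 (adjusted p = 0.225) or bRG library 1 (0.152). JUN (0.84) and JUND (0.06) did not pass. The part of dissociation in these values was not tested.

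All 16 cholesterol synthesis genes had a positive log2 fold change (median 0.42), and 1 passed. With only the N and bRG libraries in the fit 0 passed, and the blocked fit called 4. The N libraries differed from each other, with library 2 above library 1 in 1 of the 16 genes. The summed level was 8540 and 5338 CPM in N and 4805 and 4641 in bRG.

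Neurogenic transcription factors moved in both directions, with 12 of 26 higher and 6 lower. NEUROD6, a helix-loop-helix factor of post-mitotic projection neurons, was at 2377 and 1818 CPM in N and 188 and 462 in bRG (log2 fold change 2.69, SE 0.47, adjusted p = 0.00479). ST18, a zinc finger factor of the MYT1 family, was at 324 and 288 and 26.5 and 58.0 (log2 fold change 2.86, SE 0.42, adjusted p = 0.00179), and its relatives MYT1L and MYT1 rose by 2.73 and 2.10. NEUROD2 rose by 2.55 and TBR1, a T-box factor of layer 6, by 2.51. NEUROD1 (1.50) and SOX11 (0.96) did not pass.

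The proneural factors divided. NEUROG1 had no read in either N library and 174 and 336 reads in bRG, at least 66.1-fold lower in N against the same floor of 3 reads. NEUROG2 was at 281 and 184 CPM in N and 92.5 and 114 in bRG (log2 fold change 1.17, SE 0.28, adjusted p = 0.0261). Its rise was lost without N library 1 (adjusted p = 0.176), bRG library 1 (0.219) or bRG library 2 (0.0504). EOMES, the T-box factor of intermediate progenitors, was at 31.2 and 11.0 in N, 49.1 and 122 in bRG and 1357 and 1540.3 in bIP. Against bRG it was lower in N (log2 fold change -2.02, SE 0.52, adjusted p = 0.039), a call that was lost without N library 2 (adjusted p = 0.17) or bRG library 2 (0.159). Of the 17 intermediate progenitor genes measured, 4 fell and 3 rose (median 0.25). The others that fell were NEUROD4 (-3.75) and MFAP4 (-2.86), and those that rose besides NEUROG2 were ELAVL4 (1.05) and SSTR2 (1.80). None of the 3 rises passed without bRG library 1.

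Deep-layer neuron genes rose in 10 of 16 and fell in 2 (median 1.93). The 10 include BCL11B, which belongs to the definition of N. ZFPM2, a GATA cofactor of corticothalamic neurons, was at 175 and 197 CPM in N and 37.3 and 52.4 in bRG (log2 fold change 2.05, SE 0.27, adjusted p = 0.000851). SOX5, a factor of subplate and layer 6, was at 219 and 346 and 69.4 and 83.4 (log2 fold change 1.89, SE 0.32, adjusted p = 0.00407). FEZF2, of subcerebral projection neurons, rose by 1.28. ETV1, used as a layer 5 marker, fell instead, at 3.02 and 4.27 CPM in N and 65.5 and 55.7 in bRG (log2 fold change -4.06, SE 0.35, adjusted p = 3.08e-05). TLE4, a Groucho corepressor used for layer 6, was at 19.3 and 14.8 and 59.1 and 42.3 (log2 fold change -1.57, SE 0.33, adjusted p = 0.0145), and its fall was lost without N library 2 (adjusted p = 0.0949) or bRG library 1 (0.0768).

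Upper-layer genes did not move as a group, with 2 of 13 higher, none lower and a median of -0.24. PLXND1, a semaphorin receptor, was at 326 and 351 CPM in N and 48.9 and 102 in bRG (log2 fold change 2.17, SE 0.44, adjusted p = 0.0123). RORB, the layer 4 nuclear receptor, was at 72.7 and 82.0 and 36.7 and 34.1 (log2 fold change 1.13, SE 0.28, adjusted p = 0.0317). Neither rise passed without bRG library 1 (adjusted p = 0.0577 and 0.176), and that of RORB was lost without N library 1 (0.0616), N library 2 (0.147) or bRG library 2 (0.193). CUX1 (-0.38) and CUX2 (-1.08) did not pass.

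General neuronal genes rose in 15 of 19 (median 1.91), and in 6 without bRG library 1. SYT1, the calcium sensor of vesicle release, was at 704 and 1042 CPM in N and 146 and 264 in bRG (log2 fold change 2.09, SE 0.31, adjusted p = 0.00193). L1CAM, an axonal adhesion protein, was at 803 and 966 and 132 and 275 (log2 fold change 2.12, SE 0.36, adjusted p = 0.00397). In both of these bRG library 2 was above bRG library 1, and both N libraries were above both. STMN2 rose by 2.03, SNAP25 by 2.18 and RBFOX3, the NeuN antigen, by 1.66. NEFL, the light neurofilament chain, was negative and did not pass (-1.08, adjusted p = 0.709).

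The neuronal cytoskeleton rose in 13 of 23 genes (median 1.34). This count fell to 3 without bRG library 1 and to 8 with only the N and bRG libraries in the fit. DCLK1, a doublecortin-like kinase, was at 401 and 351 CPM in N and 93.3 and 158 in bRG (log2 fold change 1.58, SE 0.28, adjusted p = 0.00563). KIF3C, a kinesin, was at 297 and 332 and 62.7 and 106 (log2 fold change 1.90, SE 0.34, adjusted p = 0.00579), and MAPT, the tau protein, rose by 1.97. MAP1A rose by 1.46. DCLK1 and MAP1A missed the threshold without bRG library 1 (adjusted p = 0.0685 and 0.0794). The tubulins TUBA1A (1.06), TUBB2A (1.09) and TUBB2B (0.76) did not pass, and TUBB4A rose by 1.48.

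Axon growth and guidance genes rose in 17 of 32 and fell in 1 (median 1.45). The rises numbered 8 without bRG library 1 and 11 with only the N and bRG libraries in the fit. SLIT1, a repulsive ligand, was at 779 and 862 CPM in N and 109 and 216 in bRG (log2 fold change 2.34, SE 0.34, adjusted p = 0.00167). DCC, a netrin receptor, was at 92.2 and 74.5 and 8.95 and 17.3 (log2 fold change 2.67, SE 0.40, adjusted p = 0.00191). CNTN1, an axonal contactin, was at 175 and 176 and 21.5 and 34.7 (log2 fold change 2.65, SE 0.40, adjusted p = 0.00193), and NFASC, neurofascin of the axon initial segment, rose by 2.28. Receptors of 1 ligand family differed. UNC5A, a netrin receptor, rose by 2.47, while UNC5C was at 2.24 and 5.39 CPM in N and 15.5 and 14.6 in bRG (log2 fold change -1.98, SE 0.48, adjusted p = 0.0312). The fall of UNC5C was lost without N library 1 (adjusted p = 0.155), bRG library 1 (0.116) or bRG library 2 (0.0657). ROBO1 (0.47) and ROBO2 (-0.48), receptors of Slit proteins, did not pass. NRP2 rose by 1.94, whereas NRP1 did not pass (-1.18).

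Synaptic genes rose and none fell. Of 26 vesicle and release genes, 13 rose (median 1.71). There were 8 without bRG library 1, 20 with the replicate block and 21 with DESeq2. PCLO, the active zone scaffold piccolo, was at 479 and 599.9 CPM in N and 115 and 148 in bRG (log2 fold change 2.04, SE 0.32, adjusted p = 0.00264). STX1A, a SNARE protein, was at 236 and 194 and 44.6 and 71.8 (log2 fold change 1.89, SE 0.32, adjusted p = 0.00423). The vesicular glutamate transporters SLC17A6 and SLC17A7 rose by 1.83 and 2.09, and SYT4 by 2.48. VAMP2 (0.56), RIMS1 (1.18) and RAB3A (1.29) did not pass.

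Postsynaptic and organiser genes rose in 16 of 27 (median 1.72), and in 8 without bRG library 1. GRIA2, the AMPA receptor subunit that limits calcium entry, was at 1419.9 and 1095 CPM in N and 112 and 206 in bRG (log2 fold change 2.98, SE 0.37, adjusted p = 0.000542). DLG2, a scaffold of the postsynaptic density, was at 149 and 175 and 24.8 and 47.5 (log2 fold change 2.16, SE 0.33, adjusted p = 0.00214). GRIA1 rose by 2.83 and GRIN2B, an NMDA receptor subunit, by 2.54, and GRIN1 did not pass (2.20, adjusted p = 0.0765). DLG4, the scaffold PSD-95, did not pass (0.74), and neither did the neuroligins NLGN1 (0.80), NLGN2 (0.49) and NLGN3 (1.15).

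Voltage-gated channel genes rose in 13 of 26 (median 1.69), and in 7 without bRG library 1. CACNA1A, the P/Q-type calcium channel of terminals, was at 462 and 614 CPM in N and 79.7 and 143 in bRG (log2 fold change 2.27, SE 0.31, adjusted p = 0.00116). SCN3A, a sodium channel of fetal cortex, was at 232 and 243 and 47.4 and 62.0 (log2 fold change 2.12, SE 0.31, adjusted p = 0.00181). SCN2A rose by 2.62, whereas SCN1A did not pass (-0.44). KCNQ3, a potassium channel subunit, did not pass (1.20).

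Neuronal RNA-binding proteins rose in 13 of 24 and fell in 3 (median 1.32). Without bRG library 1 the counts were 6 and 1. RBFOX2, a splicing factor, was at 946 and 1159 CPM in N and 199.8 and 321 in bRG (log2 fold change 2.02, SE 0.29, adjusted p = 0.00141). CELF4 was at 483 and 488 and 56.8 and 130.2 (log2 fold change 2.38, SE 0.39, adjusted p = 0.00345). The regulators of neuronal microexons SRRM3 and SRRM4 rose by 2.25 and 2.56. The 3 that fell are proteins of stem cells and glia. QKI, the protein quaking, was at 66.7 and 87.0 CPM in N and 260.4 and 173 in bRG (log2 fold change -1.49, SE 0.28, adjusted p = 0.0076). MSI2, a Musashi protein, was at 166 and 73.2 and 396 and 365 (log2 fold change -1.67, SE 0.34, adjusted p = 0.0127), and MSI1 fell by 1.16. QKI missed the threshold without bRG library 1 (adjusted p = 0.059) and MSI2 without N library 2 (0.0589).

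Chromatin genes showed few calls: of 21, 5 fell and 1 rose (median -0.18). HMGA2, a high-mobility group protein of fetal stem cells, was at 36.6 and 14.0 CPM in N and 543 and 299 in bRG (log2 fold change -4.06, SE 0.47, adjusted p = 0.000349). HMGB2 was at 41.4 and 7.94 and 386 and 261 (log2 fold change -3.71, SE 0.58, adjusted p = 0.00265). REST, the repressor of neuronal genes in other cells, was at 36.5 and 26.1 and 110.2 and 73.9 (log2 fold change -1.55, SE 0.33, adjusted p = 0.0146), and lost its call without N library 2 (adjusted p = 0.1) or bRG library 1 (0.0871). Of the subunits that are exchanged in the BAF remodelling complex at the end of division, SS18 fell by 1.12, and ACTL6A (-0.70), DPF1 (1.73) and DPF3 (1.74) did not pass. BCL7A rose by 1.13, a call lost without N library 1 (adjusted p = 0.0972), bRG library 1 (0.114) or bRG library 2 (0.128). The blocked fit called 4 rises, and leaving out single libraries left 2 or 3 falls in 3 of 4 cases.

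**Figure D4:**
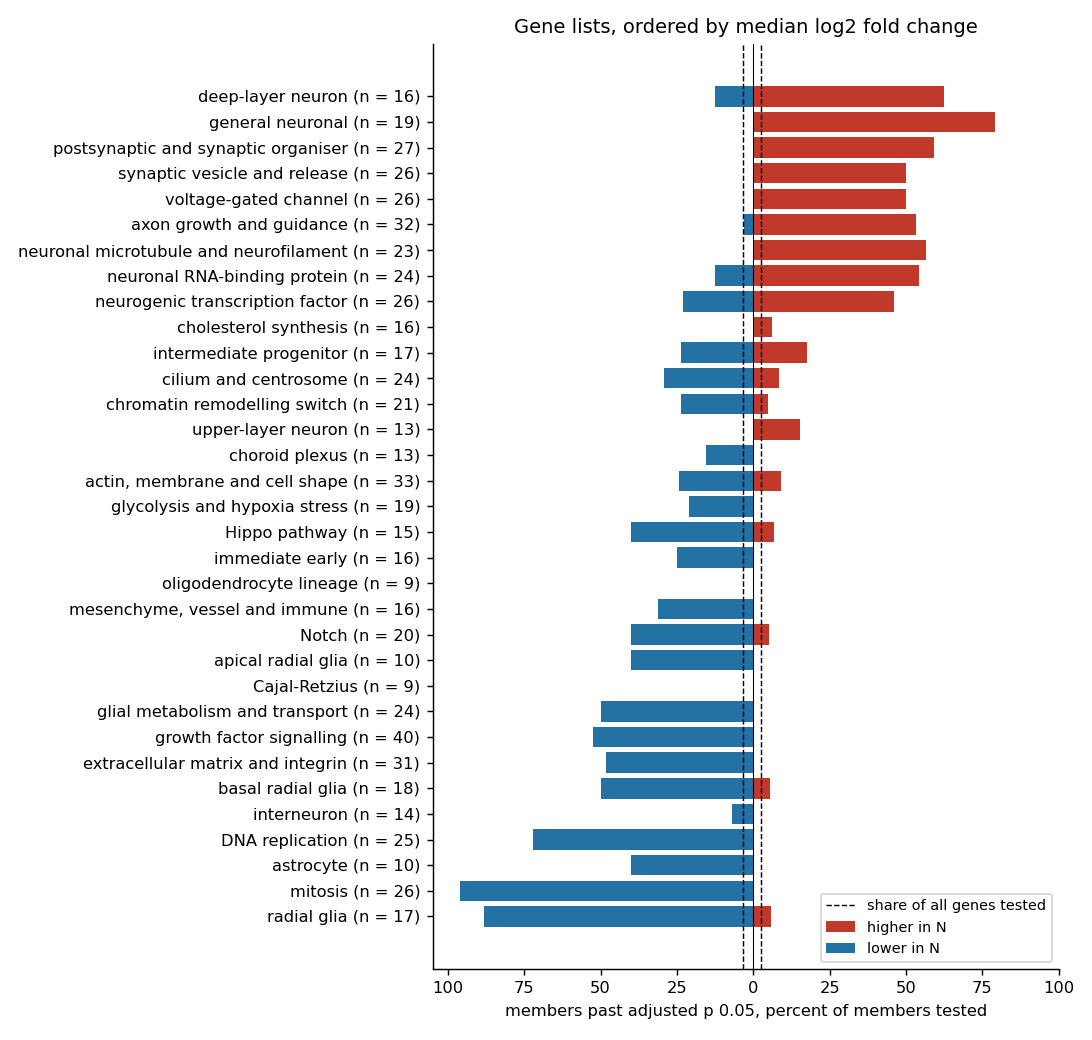
Share of the members tested that were higher (red, right) or lower (blue, left) in N for 33 gene lists, ordered by median log2 fold change, with dashed lines at the shares over all genes tested, 2.62% and 3.39%. Mitosis and radial glia lists lie furthest to the left and the general neuronal list furthest to the right.

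Lists with no call in 1 direction had few members near it. In 23 such cases with edgeR, 0 to 3 members passed an unadjusted p of 0.05 in that direction, and DESeq2 called 0 to 2.

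Markers of other cell types that a gate could admit were measured too. Of 16 mesenchyme, vessel and immune genes, 5 were lower and none higher, with a summed level of 118 and 96.2 CPM in N and 344 and 403 in bRG. COL1A1, a fibrillar collagen of mesenchyme, was at 5.49 and 5.83 CPM in N and 102 and 113 in bRG (log2 fold change -4.25, SE 0.86, adjusted p = 0.0119), and PDGFRB, the pericyte receptor, was at 31.6 and 7.94 and 133 and 122 (log2 fold change -2.69, SE 0.51, adjusted p = 0.00797). These levels moved with the matrix and growth factor lists, and their part in those lists was not tested. Of 10 astrocyte genes, 4 were lower and none higher (1 with DESeq2), and 3 had a positive log2 fold change. With only the N and bRG libraries in the fit 3 were lower, and with the hg38 counts 3. ALDH1L1 was at 2.09 and 1.04 CPM in N and 27.2 and 33.8 in bRG, and GFAP at 2.17 and 0.993 and 38.3 and 18.7. The summed level of the astrocyte list was 554 and 364 in N and 291 and 365 in bRG, with groups that overlap. SLC1A2, a glutamate transporter, was its largest part at 449 and 311 in N and 132 and 231 in bRG. Of 13 choroid plexus genes, LMX1A and OTX2 were lower, both with more reads in bRG library 1 than in bRG library 2, and 0 passed without bRG library 1 or without N library 2. The summed levels of that list were 101 and 129 CPM in N and 146 and 141 in bRG.

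Interneuron genes were summed to 19.4 and 20.0 CPM in N and 179.7 and 139 in bRG. The defining markers GAD1 (1.24 and 3.54 CPM in N, 1.98 and 0.536 in bRG) and GAD2 (1.20 and 3.19 and 3.92 and 1.86) held little of the bRG sums and did not pass. No Cajal-Retzius gene of 9 and no oligodendrocyte lineage gene of 9 passed with edgeR. The summed level of the Cajal-Retzius list was 404 and 396 CPM in N and 108 and 198 in bRG. CALB2, the calcium-binding protein calretinin, made up most of the N sum at 334 and 376 CPM, against 53.2 and 152 in bRG, while 6 of the 9 members had a negative log2 fold change (median -1.41). The oligodendrocyte list summed to 38.1 and 22.6 in N and 72.7 and 46.4 in bRG. At an unadjusted p under 0.05, 3 Cajal-Retzius members were lower and 1 higher, and 3 oligodendrocyte members were lower. DESeq2 called 2 lower and 1 higher of the former, and 2 lower of the latter.

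The comparison of N with intermediate progenitors (bIP) shares the N libraries with the one described here. In it, VIM differed by -1.87 (adjusted p = 0.00418) beside -4.04 against bRG, and HES1 by -2.36 (0.00691) beside -5.33. GRIA2 differed by 1.57 (0.0359) beside 2.98. BHLHE22, at 341 and 243 CPM in bIP, differed by 0.84 (adjusted p = 0.429) beside 2.99.

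The same libraries counted on the human genome (hg38) gave matching calls where a symbol existed. Of the 2128 genes called on panTro6, 1660 had their symbol in the human table, and 1631 of these (98.25%) were called there in the same direction. The other 29 did not pass, and none had the opposite sign. The median absolute difference between both log2 fold changes was 0.068. On hg38, 16353 genes were tested and 1988 called (12.2%), 912 higher (5.58%) and 1076 lower (6.58%), and 1631 of these (82.0%) were also called on panTro6. Among named genes, GJA1, the gap junction protein connexin 43, fell by 4.10 on panTro6 and had a log2 fold change of -1.09 on hg38 (adjusted p = 0.13). CELF6 rose by 2.09 on panTro6, and its value of 1.96 on hg38 did not pass (adjusted p = 0.0732). Of the 608 X-linked coding genes tested on panTro6, 0 had their symbol in the human table. DCX, L1CAM, EFNB1, COL4A5 and COL4A6 are among them, so their calls have no value on hg38.

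**Figure D5:**
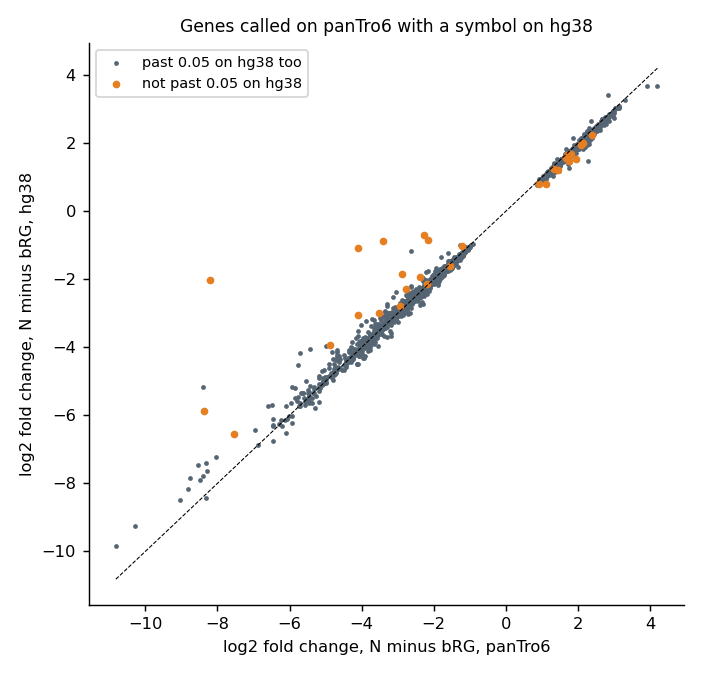
Log2 fold change (N minus bRG) on panTro6 and on hg38 for the 1660 genes called on panTro6 whose symbol is in the human table, with the line of equality dashed. Grey points, 1631 genes, passed on both genomes, and the 29 orange points did not pass on hg38.

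The human table adds genes for which the chimpanzee table held too few reads. Of the 1988 genes called on hg38, 44 were not tested on panTro6, 23 higher and 21 lower, and 38 of the 44 were listed at 0 in all 8 libraries on panTro6. TACC3, a mitotic spindle protein, was at 3.80 and 5.90 CPM in N and 158 and 219 in bRG on hg38 (log2 fold change -5.28, SE 0.39, adjusted p = 2.43e-05). HES5, a Notch effector that was not tested on panTro6, was at 2.72 and 0.705 and 92.3 and 14.1 (log2 fold change -4.93, adjusted p = 0.0101), so the bRG libraries also differed from each other. TEAD2, a DNA-binding partner of YAP1, fell by 2.90 (adjusted p = 0.000854). ACTL6B, the neuronal BAF subunit that replaces ACTL6A, was at 155 and 224 CPM in N and 21.5 and 68.4 in bRG (log2 fold change 2.07, adjusted p = 0.0202). PTBP1, the splicing repressor of non-neuronal cells, was at 111 and 114 and 209 and 199 (log2 fold change -0.86, adjusted p = 0.0229), while its neuronal relative PTBP2 rose by 0.92 on panTro6 (adjusted p = 0.0374). These 5 were chosen after their values were seen.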

How the data were processed

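Per the labels' protocols, sorted cells (10000 per library) went through a Smart-seq2 type reverse transcription, 12 to 17 cycles of PCR and fragmentation by a transposome. The strand of origin is not kept by these steps, so overlapping and antisense partners cannot be told apart, and no molecular identifiers are named, so counts include PCR copies. The authors deposited raw counts, as whole numbers of reads for each gene symbol, on 2 genomes, panTro6 (chimpanzee) and hg38 (human). The aligner was STAR, per the submitters' processing notes. Its version, the annotation and the counter with its strand option were not given in the sources used here. A row without a gene name, 0.00548% to 0.00771% of the counts of N and bRG libraries, was left out.

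Genes passing filterByExpr were normalised by TMM (trimmed mean of M values) and fitted in edgeR 4.0.16 (R 4.3.3) with 1 coefficient per population over all 8 libraries, 4 residual degrees of freedom and a common biological coefficient of variation of 0.629. The contrast N minus bRG was tested two-sided with the quasi-likelihood method, with Benjamini-Hochberg adjustment over all genes and a threshold of 0.05. SE was the absolute log2 fold change divided by the square root of F. The code was tested on simulated data.

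The comparison and the 33 gene lists (637 genes, 620 tested) were chosen with earlier results of these data known. Named were the 12 largest rises and falls (at least 10 CPM in the higher population, libraries not overlapping, regular symbol), the 8 largest CPM differences each way, identity genes, and up to 4 members of each list with the smallest adjusted p plus up to 2 that went the other way. Some of these genes are not reported here. Other list members are given by their log2 fold change to complete a family. Alternatives were DESeq2 1.42.0, its size factors, no filter, at least 5 CPM in 2 libraries, the hg38 counts, only the N and bRG libraries, the replicate number as a block, halved counts, robust estimation and leaving out each library. The labels do not say what a shared number means. Library 1 minus library 2 correlated across genes between every pair of populations (0.123 to 0.266, and 0.202 for N with bRG). The numbers were therefore treated as pairing the libraries in the blocked fit only. The main fit held no replicate term, so its SE and p-values do not use the pairing.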

Additional observations from a re-analysis of the deposited data

How the results depend on the processing

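Of 156 named genes past the threshold, 118 stayed past it in all 4 fits that leave out a library, and none of the 157 named genes changed sign in any alternative run. With only the N and bRG libraries 23 of the named genes lost their call, with the hg38 counts 2 and with robust estimation 1. The 2128 calls (928 higher, 1200 lower) became 3803 (1736, 2067) with DESeq2, 3280 (1460, 1820) without a filter on low counts, and 1392 (592 higher) with only the N and bRG libraries. Leaving out 1 library gave 1190 to 1914 calls, 274 to 838 of them higher. With DESeq2 size factors 2109 genes passed, with the 5 CPM filter 2279, with halved counts 2265 and with robust estimation 2162. Of the 2128 calls, 99.8% were shared by DESeq2, 62.8% by the fit of N and bRG libraries alone and 53.6% by the fit without bRG library 1. Why the calls depend on bRG library 1 was not tested. Neuronal levels are higher in bRG library 2, and the fit without bRG library 1 rests on that library.

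With the replicate number as a block, 3594 genes passed, 1890 higher and 1704 lower, and 99.9% of the main calls were among them. The block ended the call of none of the named genes. It moved counts of lists by over 1.5 times for synaptic vesicle genes (20 higher), chromatin genes (4 higher), centrosome and cilium genes (4 higher), cholesterol genes (4 higher), stress genes (7 lower), interneuron genes (2 lower), axon guidance genes (2 lower) and Notch genes (2 higher).

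With 2 libraries in each population, a difference that misses the threshold is not shown to be absent. Counts without molecular identifiers limit precision to counting error plus amplification, which the 3-read floor does not cover.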

Other observations

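Host transcripts of a few microRNAs are given as single values. They were chosen after their values were seen, they are host RNAs and not mature microRNAs, and they were tested on panTro6 only. MIR137HG was at 23.0 and 23.8 CPM in N and 6.19 and 4.54 in bRG (log2 fold change 2.12, SE 0.48, adjusted p = 0.0215). MIR124-2HG, host of a neuronal microRNA, was at 95.8 and 96.2 and 39.3 and 51.4 (log2 fold change 1.08, SE 0.27, adjusted p = 0.037). MIR9-3HG went the other way, at 97.8 and 63.4 in N and 263 and 307 in bRG (log2 fold change -1.82, SE 0.28, adjusted p = 0.00228), and it was highest in bIP at 359 and 432. In each of the 3 the groups did not overlap, as in every gene that passed. MIR222HG, at 12.5 and 3.88 CPM in N and 88.6 and 53.2 in bRG, fell by 3.11 (adjusted p = 0.00373).

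Other noncoding transcripts, also chosen after their values were seen, were read in the same way. LINC00599 was at 876 and 1053 CPM in N and 61.6 and 155 in bRG (log2 fold change 3.16, SE 0.43, adjusted p = 0.00101). SOX2-OT, which overlaps SOX2, was at 11.0 and 7.72 and 71.7 and 77.9 (log2 fold change -3.00, SE 0.31, adjusted p = 0.000136). HMGA2-AS1 was at 15.1 and 13.8 and 355 and 339.8 (log2 fold change -4.58, SE 0.26, adjusted p = 5.45e-06). Libraries without strand cannot separate the last pair from SOX2 and HMGA2 where they overlap. LINC00511 was at 44.2 and 45.1 and 265 and 254 (log2 fold change -2.54, SE 0.24, adjusted p = 8.1e-05).

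The genes of the X chromosome, which were tested on panTro6 only, held 74 calls among 608 coding symbols tested, 33 higher and 41 lower in N. Over all 16112 protein-coding symbols tested, 10.7% were called, 4.94% higher and 5.75% lower. The X-linked counts are close to these shares and are not read as a trait of that chromosome.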
